A study of Mus musculus with 17 samples.

Results

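The histone variant H3.3 was examined in lens chromatin at 10 genes of glutathione metabolism and oxidative defence: *Gclc*, *Gclm*, *Gss*, *Gsr*, *Gpx1*, *Gpx4*, *Nfe2l2*, *Prdx6*, *Txnrd1* and *Cat*. The 10 genes were picked by name, for the function of their proteins, from the 21951 protein-coding genes of the mouse annotation (GENCODE vM21 on mm10, the assembly GRCm38). For each gene a window was taken that ran from 5 kb before its body to 5 kb behind it, and every H3.3 island touching that window by at least 1 bp was collected in each library. Islands are stretches of the genome that a peak caller, SICER2, marked as denser in ChIP-seq reads than the background. The ChIP-seq libraries came from lenses of newborn CD1 mice, an outbred stock without a named genetic change or treatment, that had been microdissected into epithelium, the dividing cell sheet at the front of the lens, and fibers, the elongated cells that make up its bulk. There were 2 biological replicates of each compartment, made from 12 µg of chromatin and 5 µl of an antibody against H3.3. The labels give a pool of 150 lenses per sample, so that single animals could not be compared, and state the age as day 1 after birth in the titles and as day 0.5 in the protocol.

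Glutathione is a small thiol peptide that the lens holds at a high level, where it keeps crystallins and other proteins reduced and serves as the electron donor for the removal of peroxides. It is made in a pair of steps, by glutamate-cysteine ligase and by glutathione synthetase, and glutathione reductase returns its oxidized form to the reduced one. Glutathione peroxidases, peroxiredoxins and catalase break down peroxides, thioredoxin reductase feeds a parallel thiol system, and the transcription factor NRF2 binds antioxidant response elements in the promoters of many of these genes. H3.3 is a variant of histone H3 that is placed into chromatin outside of DNA replication and is known to gather at active promoters, enhancers and transcribed gene bodies.

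The promoters are shown first, because the islands described further on either contained or left out these sequences. RefSeq windows on GRCm38.p6, each with 250 bases before and 50 bases behind a transcript start, were at hand for 7 of the 10 genes. They were searched for TGACNNNGC, the core of the antioxidant response element, on both strands. The core was found in 3 of 12 windows, 1 each of *Gclm*, *Nfe2l2* and *Txnrd1*, whereas 12.4% of all 32851 RefSeq promoter windows held it. A match of these letters is not evidence that NRF2 was bound. The windows with a match are printed 5′ to 3′ on the strand of the gene with the core in capitals, and beneath them stands the window of the upstream start of *Txnrd1*, which held no match and no island in any library.
Gclm (chr3:122245307-122245606, plus strand): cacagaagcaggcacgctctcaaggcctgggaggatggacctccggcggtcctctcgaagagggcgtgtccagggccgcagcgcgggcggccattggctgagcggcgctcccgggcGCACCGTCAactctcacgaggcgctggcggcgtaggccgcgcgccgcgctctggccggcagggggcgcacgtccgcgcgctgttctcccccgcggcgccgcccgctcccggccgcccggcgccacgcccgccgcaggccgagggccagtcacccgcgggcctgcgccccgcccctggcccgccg
Nfe2l2 (chr2:75704614-75704913, minus strand): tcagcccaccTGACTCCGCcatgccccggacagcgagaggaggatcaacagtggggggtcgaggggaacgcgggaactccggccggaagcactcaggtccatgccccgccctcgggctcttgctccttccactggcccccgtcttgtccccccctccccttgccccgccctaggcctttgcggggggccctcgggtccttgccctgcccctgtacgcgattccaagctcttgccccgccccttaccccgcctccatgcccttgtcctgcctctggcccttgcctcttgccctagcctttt
Txnrd1 internal start (chr10:82858956-82859255, plus strand): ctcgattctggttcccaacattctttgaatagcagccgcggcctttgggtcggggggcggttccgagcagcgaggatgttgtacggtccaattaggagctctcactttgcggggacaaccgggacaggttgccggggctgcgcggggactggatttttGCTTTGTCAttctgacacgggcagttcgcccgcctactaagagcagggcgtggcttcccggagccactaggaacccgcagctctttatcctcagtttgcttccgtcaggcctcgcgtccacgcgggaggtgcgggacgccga
Txnrd1 upstream start (chr10:82833701-82834000, plus strand): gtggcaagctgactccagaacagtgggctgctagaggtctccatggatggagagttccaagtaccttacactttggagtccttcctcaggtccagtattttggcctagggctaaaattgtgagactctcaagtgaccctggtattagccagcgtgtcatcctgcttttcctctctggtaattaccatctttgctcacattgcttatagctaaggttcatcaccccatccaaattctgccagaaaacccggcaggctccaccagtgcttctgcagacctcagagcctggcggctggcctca

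These windows differed in CpG number and in H3.3. The *Gclm* window held 48 CpG dinucleotides, the internal *Txnrd1* window 27, the *Nfe2l2* window 18 and the upstream *Txnrd1* window 3, compared with a median of 7 (quartiles 3 and 20) over all windows. The core began 134 bases before the transcript start in *Gclm*, 240 bases in *Nfe2l2* and 92 bases in *Txnrd1*. Of the 300 bases at *Nfe2l2*, islands covered 300 bases in epithelium replicate 1, 187 bases in epithelium replicate 2 and 300 bases in each fiber replicate. At the internal *Txnrd1* start, the whole window was covered in epithelium replicate 2 and in both fiber replicates, and no base in epithelium replicate 1. At *Gclm*, no base was covered in epithelium, 6 bases in fiber replicate 1 and the whole window in fiber replicate 2. The windows with a core were thus under an island, whole or in part, in 4 libraries at *Nfe2l2*, 3 at *Txnrd1* and 2 at *Gclm*. The core itself lay outside the island of epithelium replicate 2 at *Nfe2l2* and that of fiber replicate 1 at *Gclm*. The other islands over these windows contained it.

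The lists of islands set the frame for all values. Epithelium replicate 1 had 10389 islands over 45.4 Mb, epithelium replicate 2 had 14434 over 48.9 Mb, fiber replicate 1 had 27059 over 178 Mb and fiber replicate 2 had 35940 over 188 Mb. The median number of reads per kb of island was nearly the same in all lists, between 27.4 and 28.3. Sequencing depth is unknown, since the lists hold only reads inside islands, and no limit of detection could be given. Where a window is said to have no island, none was called there. Markers of the labelled tissue had islands: all 8 fiber markers examined, and all 4 epithelium markers, *Foxe3*, *Pdgfra*, *Cdh1* and *Pax6*, were covered to a larger share in both fiber libraries than in both epithelium libraries. *Foxe3*, a transcription factor of the lens epithelium, had no island in epithelium replicate 1 and 60.7% in replicate 2. No island was called at 3 markers of pigmented and corneal cells (*Tyr*, *Mlana* and *Krt12*). For 5 markers of blood and vessels the mean covered share was 0.865 and 1.74% in epithelium and 4.19 and 6.56% in fibers, with none at *Hbb-bs* and *Ptprc*, and for 3 retinal markers it was 19.3, 4.33, 20.1 and 9.48% in the same order, with none at *Crx*. The part of other cells in the values below was not tested.

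H3.3 islands covered more of the window in both fiber libraries than in both epithelium libraries at 9 of the 10 genes, the exception being *Prdx6*, which had no island at all. The covered share was higher in both fiber libraries for 45.0% of all protein-coding genes, and higher in both epithelium libraries for 0.670% of all genes and for none of the 10. An island was called in at least 1 library at 9 of the 10 genes (64.4% of all genes). In both fiber libraries and no epithelium library, islands were called at 4 genes, *Gclc*, *Gclm*, *Gsr* and *Cat* (15.2% of all genes). The median covered share of the 10 windows was 0 and 2.44% in the epithelium libraries, and 34.8 and 48.3% in the fiber libraries (here and below, replicate 1 before replicate 2). Their mean share was 12.2, 12.2, 42.1 and 47.4%, whereas the mean over all genes was 7.40, 7.65, 21.0 and 20.9%. The fiber value minus the epithelium value had a median of 23.6 percentage points over the 10 genes, of 4.71 over all genes and of 16.0 over the 14147 genes with an island in any library. When the same number of islands was taken from every library, the median over the 10 genes was 4.41 points for the densest islands by reads per kb and 11.3 points for those with the highest read counts. The smallest p that an exact permutation test (two-sided) allows for 2 against 2 libraries is 0.33, which each of the 9 genes reached, and the comparisons therefore rest on the values per library. In bulk chromatin, a larger number of cells with H3.3 at a gene and more H3.3 per cell cannot be told apart.

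The count of 9 genes changed with the selection of islands. The selections altered both the number and the density or read count of the islands kept, and these were not told apart. When the 10389 islands with the highest reads per kb were taken from every library, 5 of the 10 genes (*Cat*, *Gpx4*, *Gss*, *Nfe2l2* and *Txnrd1*) were covered more in both fiber libraries, against 15.6% of all genes, and *Gpx1* was covered more in both epithelium libraries, against 4.84%. With the 10389 islands of the highest read counts, there were 6 genes (*Gclm*, *Gpx1*, *Gpx4*, *Gss*, *Nfe2l2* and *Txnrd1*) against 21.4% of all genes. *Gss*, *Nfe2l2* and *Txnrd1* kept their direction in each of these selections and also when the covered length was divided by the total covered length of the library. Under that division *Gpx1* and *Gpx4* had larger values in epithelium, which full coverage in fibers could not have prevented, since the fiber libraries had far more covered length in all.

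**Figure D1:**
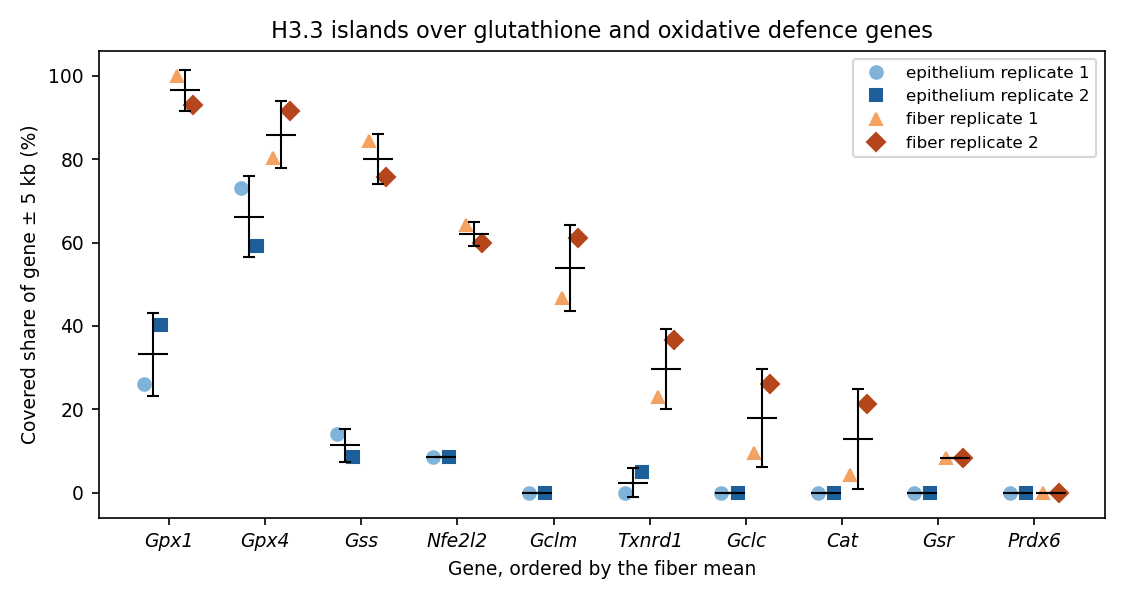
Share of the window (gene body and 5 kb on each side, in percent, vertical axis) under H3.3 islands for each of the 10 genes, with 1 point per library and the mean and SD of the 2 libraries of each compartment. *Gpx4* had the highest epithelium values (73.0 and 59.3%), *Gpx1* the highest fiber values (100 and 93.0%), and *Prdx6* lay at 0 in all 4 libraries.

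Glutathione synthesis was examined first. *Gss* (ENSMUSG00000027610.17, chr2:155563181-155592810, minus strand) encodes glutathione synthetase, which adds glycine in the last step. Its window was covered to 14.1 and 8.58% in epithelium and to 84.3 and 75.7% in fibers. The means were 11.4% ± 3.93 and 80.0% ± 6.05 (SD, n = 2 each), a difference of 68.6 percentage points, the largest of the 10 genes and many times the spread between replicates. In epithelium, a single island per library lay over the start and reached 4209 and 2009 bp into the gene, and the middle and 3′ parts of the body, cut into 3 equal parts, held none. In fibers the island over the start reached 11209 and 9009 bp into the gene, and the 3′ part was covered to 100 and 91.9%. The longest island measured 5600 and 3400 bp in epithelium and 20400 and 13000 bp in fibers, a ratio of means of 3.71. Its islands held 25.7 and 24.1 reads per kb in epithelium and 30.4 and 31.2 reads per kb in fibers, a ratio of 1.24 with no overlap between compartments. Most of the *Gss* body overlaps *Acss2*, an acetyl-CoA synthetase gene on the other strand that took up 69.5% of the window. Most fiber islands listed at *Gss* lay over both genes. The middle and 3′ parts of the *Gss* body lie wholly inside *Acss2*, so that their coverage cannot be assigned to either gene. The reads do not tell the strands apart. With the bases of *Acss2* left out, an alternative added after the values had been seen, the difference at *Gss* was 44.5 percentage points. With other genes left out of every window, *Gss* was no longer the largest, since *Gclm* (54.7 points) and *Nfe2l2* (53.4 points) lay above it.

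*Gclc* and *Gclm* encode the catalytic and the modifier subunit of glutamate-cysteine ligase, the enzyme of the rate-limiting step, and neither had an island in epithelium. At *Gclm* (ENSMUSG00000028124.15, chr3:122245557-122270732, plus strand) the fiber libraries covered 46.6 and 61.2% of the window, a mean of 53.9% ± 10.3 (SD, n = 2). In fiber replicate 1 the first island began 44 bp behind the gene start, and in fiber replicate 2 it ran from 1356 bp upstream to 4443 bp into the gene. Further islands lay in the gene and behind it, and 14000 bp were under islands of both fiber replicates, which is 85.4% of the covered length in replicate 1 and 65.0% in replicate 2. The fiber libraries therefore differed at the promoter printed above, and 45.8% of the body lay under islands of both. With 10389 islands of the highest reads per kb per library, and likewise with islands of at least the median density, the difference at *Gclm* was 3.98 percentage points and the compartments overlapped. The nearest epithelium islands were 42.0 and 38.0 kb upstream of the gene body and 22.1 and 21.5 kb downstream.

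At *Gclc* (ENSMUSG00000032350.9, chr9:77754535-77794485, plus strand) the fiber libraries covered 9.61 and 26.2% of the window, a mean of 17.9% ± 11.7 (SD, n = 2). The spread between the fiber replicates was thus large compared with the mean. The stretch that both replicates had in common, 4800 bp between 34266 and 39065 bp behind the gene start, lay in the 3′ part of the body, which was covered to 36.0 and 69.3%. No library had an island over the *Gclc* start. Fiber replicate 2 alone had a short island of 1200 bp that began 266 bp behind the start and held 54 reads. Its density of 45.0 reads per kb exceeded 99.2% of the islands of that library, of which 0.373% were shorter. Of the ligase subunits, *Gclm* ranked above 80.6 and 88.1% of all genes by covered share in the fiber libraries and *Gclc* above 55.2 and 69.2%.

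Reduction of oxidized glutathione and thioredoxin depends on *Gsr* and *Txnrd1*. *Gsr* (ENSMUSG00000031584.16, chr8:33652523-33698163, plus strand), which encodes glutathione reductase, had no island in epithelium and a single island in each fiber library. The island had the same borders in both, from 522 bp upstream of the start to 4077 bp into the gene, with 115 reads in replicate 1 and 118 reads in replicate 2. It covered 8.27% of the window in each and left the middle and 3′ parts of the gene free. Among the 9 genes with islands, *Gsr* was therefore the most alike between fiber replicates and the one with the smallest difference between compartments. Its islands were less dense than the median island of their libraries, and none remained under either choice of 10389 islands per library.

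*Txnrd1* (ENSMUSG00000020250.10, chr10:82833951-82897712, plus strand) encodes the cytosolic thioredoxin reductase. The window was covered to 0 and 4.88% in epithelium and to 23.0 and 36.6% in fibers. The means were 2.44% ± 3.45 and 29.8% ± 9.59 (SD, n = 2 each), a difference of 27.4 percentage points. No library had an island in the 5 kb before the gene or in the 5′ part of its body, where the upstream start lies. The start of the transcript that the annotation marks as principal lies 25228 bp inside the gene, and an island covered it in epithelium replicate 2 and in both fiber replicates. This island spanned 3600 bp with 25.3 reads per kb in epithelium replicate 2, 5600 bp with 29.6 reads per kb in fiber replicate 1 and 4200 bp with 34.0 reads per kb in fiber replicate 2. The islands thus lay over the internal, CpG-rich promoter printed above and left the upstream one free. The same islands also covered another internal RefSeq window of *Txnrd1* (chr10:82860091-82860390), with 12 CpG dinucleotides and no core. In fibers, further islands lay in the middle and 3′ parts, and the 5 kb behind the gene was covered to 81.8% in both replicates.

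**Figure D2:**
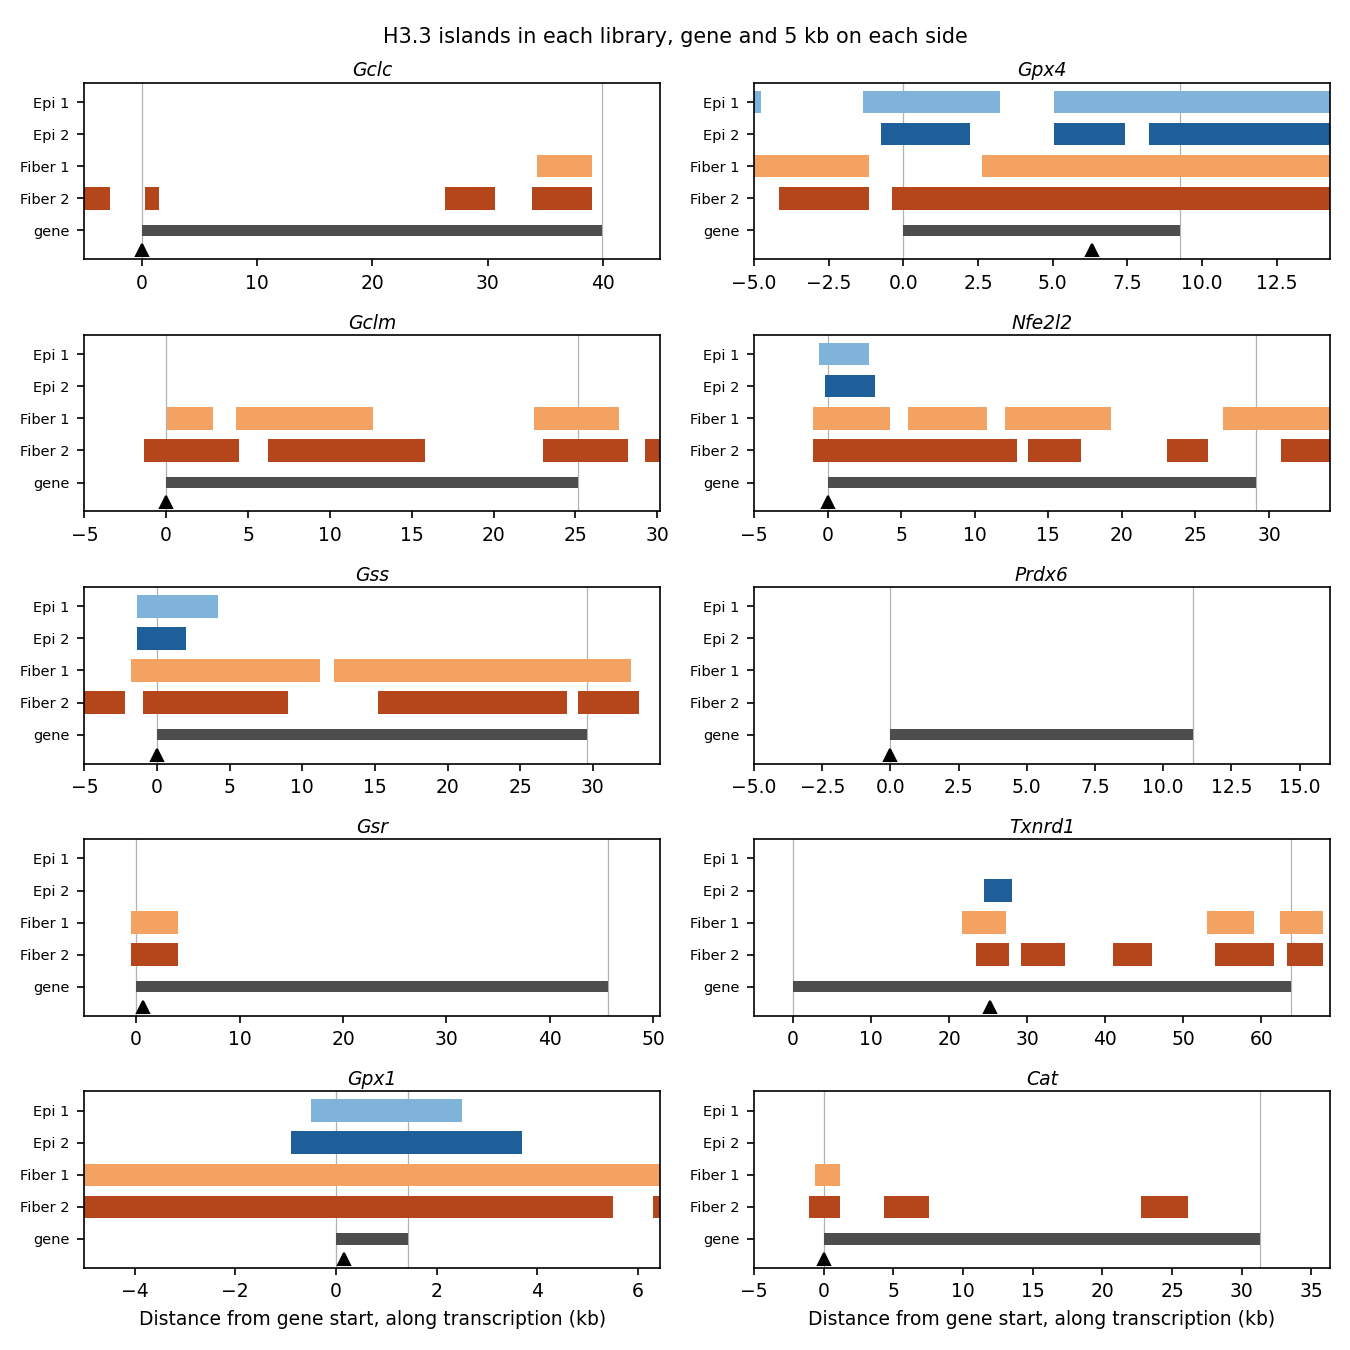
Position of every H3.3 island within the window of each gene (horizontal axis, kb from the gene start along transcription), with 1 row per library, the gene body as a grey bar, a triangle at the principal transcript start and islands cut off at the window edge. In both epithelium libraries, islands lay over the start of *Gss*, *Gpx1*, *Gpx4* and *Nfe2l2*, and epithelium replicate 2 had an island of 3600 bp within *Txnrd1*, whereas fiber islands reached over most of *Gss*, *Gpx1* and *Gpx4* and were called in both fiber libraries at 9 of the 10 genes.

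Among the genes for removal of peroxides, *Gpx1* and *Gpx4* had islands in all 4 libraries. *Gpx1* (ENSMUSG00000063856.7, chr9:108338903-108340343, plus strand) encodes the main cytosolic glutathione peroxidase. Its short body was fully covered in every library, so that the compartments differed in the flanks. The window was covered to 26.2 and 40.2% in epithelium and to 100 and 93.0% in fibers, with means of 33.2% ± 9.89 and 96.5% ± 4.94 (SD, n = 2 each). Islands over the start reached 502 and 902 bp upstream in epithelium, and 11702 and 9502 bp in fibers, where they ran into the neighbouring gene *Rhoa*, a small GTPase gene whose body made up 35.2% of the window. The longest island was 3000 and 4600 bp in epithelium and 23200 and 15000 bp in fibers. The ratio of 5.03 was the largest among the genes with islands in both compartments. Density ran the other way, with 35.0 and 31.5 reads per kb in epithelium and 28.1 and 27.1 reads per kb in fibers, a ratio of 0.829 without overlap. With *Rhoa* left out of the window, the difference in covered share was 43.3 percentage points in place of 63.3. With 10389 islands of the highest reads per kb per library it turned to -33.2 points. Divided by the library's total covered length it was -19.6 bp per Mb of islands, but with epithelium at 80.1 bp per Mb, full coverage in fibers would have given 62.6, so that this sign was fixed by the division.

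*Gpx4* (ENSMUSG00000075706.10, chr10:80047166-80056439, plus strand) encodes the peroxidase that reduces lipid hydroperoxides in membranes. Covered shares were 73.0 and 59.3% in epithelium and 80.3 and 91.5% in fibers. The means, 66.2% ± 9.67 and 85.9% ± 7.94 (SD, n = 2 each), differed by 19.7 percentage points, and the closest libraries of the compartments lay nearer to each other than the replicates of either did. In each epithelium library the *Gpx4* window was covered to a larger share than those of at least 97.9% of all genes, the highest rank of the 10 genes there. The annotated gene start lacked an island in fiber replicate 1, while the principal transcript start, 6322 bp inside the gene, was covered in all 4 libraries. The longest island was 13400 and 9800 bp in epithelium and 18400 and 21800 bp in fibers, a ratio of 1.73. An island in each library extended over the neighbouring gene *Sbno2*, on the other strand. Reads per kb were 29.0 and 29.3 in epithelium and 29.8 and 30.2 in fibers, a ratio of 1.03. Divided by the library's total covered length, the difference was -182 bp per Mb of islands, a sign that the division fixed, since full coverage in fibers would have lain below the 272 bp per Mb of epithelium.

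*Cat* (ENSMUSG00000027187.10, chr2:103453849-103485160, minus strand) encodes catalase, the peroxisomal enzyme that splits hydrogen peroxide. There was no island in epithelium, and 4.36 and 21.3% of the window was covered in fibers, a mean of 12.8% ± 12.0 (SD, n = 2). Both fiber libraries had a short island over the start, of 1800 bp with 85 reads in replicate 1 and of 2200 bp with 77 reads in replicate 2. At 47.2 and 35.0 reads per kb, these were denser than 99.6 and 90.0% of the islands of their libraries. They were also among the shortest, with 0.662 and 7.82% of the islands of their libraries shorter. Whether density ranks depend on island length was not tested. The 2 further islands, inside the gene, were called in fiber replicate 2 alone and held 21.6 and 24.4 reads per kb, below the median of that library. At *Cat*, the islands of high density were thus the short ones at the start.

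*Prdx6* (ENSMUSG00000026701.15, chr1:161240112-161251219, minus strand) encodes a peroxiredoxin that uses glutathione as its partner. None of the 4 libraries had an island in its window. The nearest islands lay 1418 and 46.6 kb upstream of the body in epithelium, and 623 and 566 kb upstream in fibers. On the other side they lay 198 and 166 kb away in epithelium and 107 and 197 kb away in fibers. Exact repeats of the read length were few there: 0.571% of the 75 nt stretches in the window occur more than once in the genome. This compares with 0.0752 to 5.53% in the windows of the other 9 genes, and none of them lay within 1 kb of the *Prdx6* start. Inexact copies were not searched, and how reads were placed was not tested.

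*Nfe2l2* (ENSMUSG00000015839.6, chr2:75675513-75704641, minus strand) encodes NRF2, the factor that binds antioxidant response elements. The window was covered to 8.69% in each epithelium replicate and to 64.1 and 60.0% in fibers. The means were 8.69% ± 0 and 62.1% ± 2.89 (SD, n = 2 each), and the difference of 53.4 percentage points was far larger than the spread between replicates. In epithelium, 1 island of 3400 bp per library lay over the start, with 90 reads in replicate 1 and 100 reads in replicate 2. In fibers the start island reached 4240 and 12840 bp into the gene, compared with 2840 and 3240 bp in epithelium, and islands followed through the body and behind it. The longest island was 10200 and 13800 bp in fibers, a ratio of 3.53 to epithelium. Density did not separate the compartments, with 26.5 and 29.4 reads per kb in epithelium and 27.4 and 28.2 reads per kb in fibers (ratio 0.993). *Nfe2l2* gave the closest replicates in covered share among the genes with islands in all 4 libraries.

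**Figure D3:**
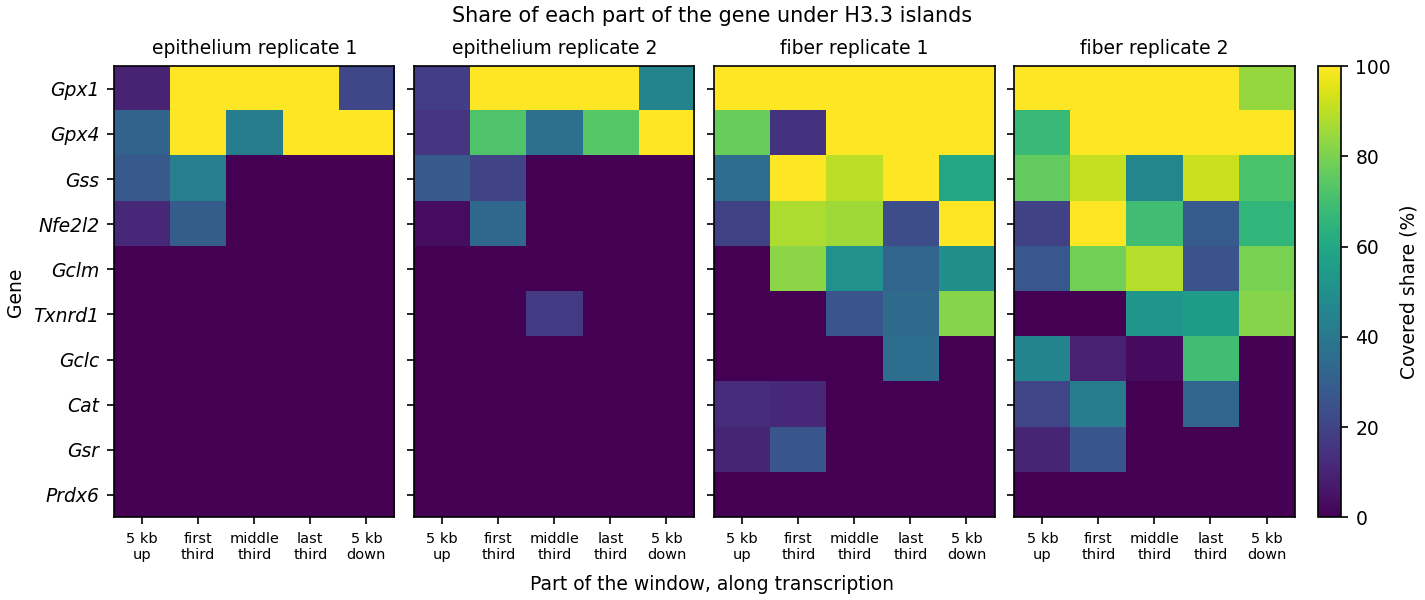
Covered share in percent (colour) of the 5 kb before the gene, 3 equal parts of its body along transcription and the 5 kb behind it, for the 10 genes in each of the 4 libraries. In epithelium, *Gss* and *Nfe2l2* were covered only before the gene and in the 5′ part (20.4 to 42.6% of that part), whereas in fibers every part of both genes was covered in part or whole.

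Along the genes, the larger coverage in fibers was not confined to the start. Averaged over the 10 genes, the 5′ part of the body was covered to 27.2 and 22.6% in epithelium and to 42.3 and 54.7% in fibers, and the middle part to 14.2 and 15.4% in epithelium and to 45.3 and 46.0% in fibers. In epithelium, the middle part was covered only at *Gpx1*, whose body measures 1441 bp, at *Gpx4*, and at *Txnrd1* in replicate 2. Over all protein-coding genes, the 5′ part was covered to 9.11 and 9.69% in epithelium and 25.1 and 25.9% in fibers, and the middle part to 7.27 and 7.56% in epithelium and 19.8 and 19.2% in fibers. The 5 kb behind the gene was covered to 49.1 and 48.3% in fibers over the 10 genes, and to 22.8 and 22.6% over all genes. Within these windows, the bases under epithelium islands lay almost wholly under islands of either fiber library. This share was not computed over all genes, and the fiber lists covered 178 and 188 Mb against 45.4 and 48.9 Mb in epithelium. At *Gss*, *Gpx1* and *Nfe2l2*, 100% of the bases under an epithelium island were also under a fiber island, at *Gpx4* 94.3%, and at *Txnrd1* 88.9%.

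Islands over the gene start were called in all 4 libraries at 3 of the 10 genes, *Gss*, *Gpx1* and *Nfe2l2*, compared with 6.16% of all genes. When the start of the principal transcript was used, *Gpx4* joined them (4 of 10, against 6.21%). *Gsr* and *Cat* had a start island in both fiber libraries and in no epithelium library, a pattern of 15.6% of all genes. At the 3 genes with start islands everywhere, the island reached further into the gene in both fiber libraries, as it did at 52.7% of the 1352 genes of that kind. The median reach into the gene was 3097 bp in epithelium and 8540 bp in fibers over the 3 genes, and 2215 and 4806 bp over the 1352 genes. The median of the differences per gene was 5500 bp, and between 5300 bp and 8100 bp over the same 3 genes when each library was left out in turn. Upstream, the start island reached further in both fiber libraries at *Gpx1* and *Nfe2l2* and not at *Gss* (49.1% of the 1352 genes), with a median difference of 600 bp, and between 400 and 800 bp over the same 3 genes when each library was left out. Without fiber replicate 1 *Gpx4* also had a start island in every library, and over these 4 genes the medians were 7850 bp into the gene and 100 bp upstream.

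Length and density of the islands were compared at the 4 genes with islands in all libraries (*Gss*, *Gpx1*, *Gpx4* and *Nfe2l2*), which 23.9% of all genes also had. Both the covered share and the longest island were larger in both fiber libraries at all 4 genes, as the covered share was at 78.6% and the longest island at 76.3% of the genes with islands in all libraries. Reads per kb were higher in both fiber libraries at *Gss* and *Gpx4* (30.8% of such genes), lower in both at *Gpx1* (16.3%) and overlapping at *Nfe2l2*. Compartments thus differed in how far the islands ran, by 1.73 to 5.03 times, and much less in how densely they were filled, by 0.829 to 1.24 times. Over all islands of each library, the median density was also nearly the same, between 27.4 and 28.3 reads per kb. Similar densities were therefore not particular to these genes. The part of sequencing depth in these lengths was not tested, and the reads are not normalized. Over these 4 genes and *Txnrd1*, with an epithelium island in replicate 2 alone, the median ratio of densities was 1.03. Divided by the library's total of reads in islands, it became 0.273. These totals were 1331369 and 1430373 in epithelium and 5041885 and 5359085 in fibers, so that a ratio near 1 had to fall below 1.

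**Figure D4:**
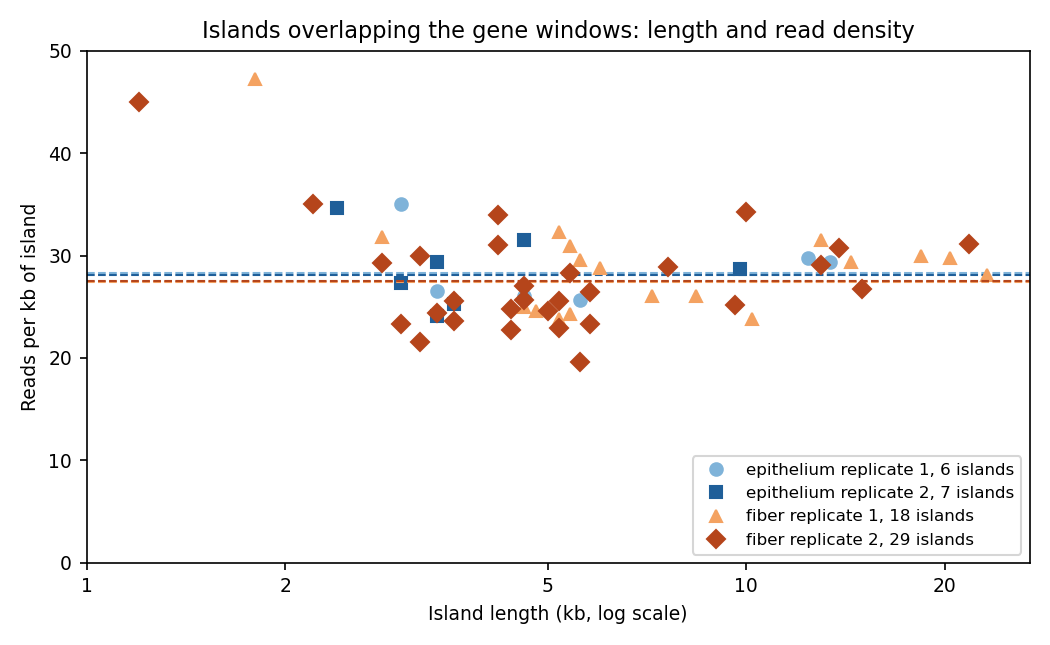
Length (horizontal axis, kb, log scale) and reads per kb (vertical axis) of each island that touched a window of the 10 genes, which came to 6 and 7 in the epithelium libraries and 18 and 29 in the fiber libraries, with dashed lines at the median reads per kb of all islands of each library. Fiber islands extend to greater lengths (up to 23200 bp against 13400 bp) at similar densities, and the densest points are the short islands at the start of *Cat* (47.2 reads per kb) and just behind the start of *Gclc* (45.0).

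The other genes of the pathway were taken from a list of 40 genes of glutathione metabolism and oxidative defence. Of these, 24 were covered more in both fiber libraries (45.0% of all genes) and none in both epithelium libraries (0.670%). Another 8 had values that overlapped between compartments, and 8 had no island in any library, so that 32 of the 40 had an island (64.4% of all genes). A start island in all 4 libraries, a feature of 6.16% of all genes, was found at 6 of them: *Slc3a2*, *Txn1*, *Prdx2*, *Prdx5*, *Gstp1* and *Gstm1*. The median difference was 11.3 percentage points, between that of the 10 genes and that of all genes.

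The 4 genes of the list with the highest mean coverage in fibers were *Prdx5*, *Prdx2*, *Slc3a2* and *Gstp1*. *Prdx5*, a peroxiredoxin found in mitochondria and peroxisomes, was covered to 43.3 and 67.1% in epithelium and to 92.5 and 96.2% in fibers. *Prdx2*, a cytosolic peroxiredoxin, was covered to 66.9 and 72.1% in epithelium and to 89.4 and 96.0% in fibers. *Slc3a2*, the heavy chain of amino acid transporters that include the cystine carrier, was covered to 24.9 and 20.4% in epithelium and to 87.2 and 67.8% in fibers. *Gstp1*, a glutathione S-transferase, was covered to 50.9 and 25.4% in epithelium and to 71.4 and 82.6% in fibers. In all 4 genes the compartments did not overlap. At the other end, 9 genes had no island in fibers: *G6pdx*, *Prdx3*, *Prdx4*, *Sod3*, *Glrx*, *Glrx2*, *Mgst1*, *Mgst3* and *Gpx2*, of which *Gpx2* alone had an epithelium island, in replicate 1 (19.3%). The peroxiredoxins therefore spanned the whole range, from *Prdx5* and *Prdx2* to *Prdx3*, *Prdx4* and *Prdx6* without an island.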

How the data were processed

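H3.3 ChIP-seq libraries of lens epithelium and fibers, 2 each, were analysed. The authors aligned reads of 75 nt to mm10 with BWA. Island calling was done by library, in SICER2 (window 200 bp, gap 600 bp, false discovery rate 0.01). The deposited lists give positions and the count of reads in each island, a raw count that the authors did not normalize. A list with few islands may come from a shallow library, and the read counts in islands (1331369 to 5359085) are not depths. Whether the input served in calling, and whether duplicates were removed, is not given in the sources used here.

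Windows were gene bodies of GENCODE vM21 widened at either end by 5 kb. The covered share is the percentage of the window under islands, and the reads per kb are the reads of all islands touching the window divided by their summed length. A gene was counted as higher in a compartment when both its libraries lay above both libraries of the other. Exact two-sided permutation tests were computed per gene. Whether libraries of the same replicate number came from the same lenses is not given in the sources used here, and they were compared unpaired. All 10 genes, their neighbours, and the 4 highest and the lowest genes of the list of 40 were named. The genes and lists were chosen with earlier results of these data known.

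Alternatives left out each library, used replicate blocks, the gene body alone, 10 kb on each side, islands of at least the median density, 10389 islands per library, islands with at least 50% of their length inside, scaling by library totals and principal transcript starts. The steps were tested on simulated data. Python 3.11.15, numpy 2.4.6, numba 0.67.0 and matplotlib 3.10.9 were used. Methylation libraries were not analysed here.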

Additional observations from a re-analysis of the deposited data

How the results depend on the processing

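Of 99 differences in covered share computed for the 9 genes with islands over 11 alternatives, 92 kept their direction, 1 was reversed and 6 were 0. The replicate block and the scaling by library totals are not in this count. Leaving out 1 library could change neither a direction nor the count of 9 genes. The reason is that both fiber libraries lay above both epithelium libraries at these genes. *Gclc*, *Gclm*, *Gsr* and *Cat*, without an epithelium island in their windows, could not be reversed by a selection of islands. Length and density ratios are medians over the genes with islands in both compartments at each setting. Leaving out 1 library gave medians over the 10 genes of 17.4 to 30.2 percentage points (23.6 with all libraries), length ratios of 2.89 to 3.53, density ratios of 1.02 to 1.04, 9 genes covered more in fibers each time, 3 to 4 genes with start islands, a reach into the gene of 5300 to 8100 bp and upstream of 100 to 800 bp. The 100 bp came without fiber replicate 1, where *Gpx4* entered as an additional gene, and over the same 3 genes the upstream values were 400 to 800 bp. Islands of at least the median density gave a median difference of 10.4 points, a length ratio of 2.82, 5 genes covered more in fibers (30.9% of all genes at this setting) and 0 genes with start islands in all libraries. The same number of islands with the highest reads per kb gave 4.41 points, ratios of 2.71 and 1.11, 5 genes and 1 gene with start islands, and *Gpx1* at -33.2 points. The highest read counts gave 11.3 points and a density ratio of 1.04. Islands with most of their length inside the window gave 15.4 points, and the gene body alone a density ratio of 1.06. Scaling by library totals gave 38.4 bp per Mb of islands, a density ratio of 0.273, and negative values at *Gpx1* (-19.6) and *Gpx4* (-182), which the division by library totals made certain, because even full coverage in fibers would have lain below epithelium at both genes. Principal starts gave a reach of 6250 bp into the gene and 2250 bp upstream. The cause of these changes was not tested. A replicate block cannot move a difference of means in this balanced design (median 23.6 points, length ratio 3.53), and its smallest p is 0.5 by exact sign flips. Deviations of same-numbered libraries correlated at 0.01 over 14147 genes, a value that cannot tell whether they came from the same lenses. Depth is unknown for all lists and limits every comparison of covered length, and absence of an island is not absence of H3.3.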
